A study of Mus musculus with 33 samples.

Results

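V kappa to J kappa joining in B cell precursors that carry the homozygous Wapl promoter mutation was compared between the pro-B and the pre-B stage. The libraries were chosen by their labels, as Igk VDJ-seq libraries of genotype Wapl(∆P1,2/∆P1,2), and number 6 from pro-B and 4 from pre-B cells, 10 of the 33 samples of the series. VDJ-seq captures J kappa segments from sheared genomic DNA and records which V kappa gene is joined to them. The mutation removes the Pax5-binding site P1 from the Wapl promoter together with a downstream region that holds P2, and it is present in the germline, so that all cells of the mice carry it. Both stages came from C57BL/6 mice of 4 to 5 weeks and both sexes, and were sorted from bone marrow without culture. The sort took B220+ cells that lacked IgM and IgD, of which those with Kit and no CD25 are the pro-B and those with CD25 and no Kit the pre-B cells. Genomic DNA holds no expression markers, so the stage of a library rests on the sort. The 10 matching Wapl(+/+) libraries, 6 from pro-B and 4 from pre-B cells, served to set the stage difference of the mutant beside that of the wild type.

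As background, the mouse Igk locus spreads its V kappa genes over a long stretch of chromosome 6, with the J kappa elements at 1 end. Most joining takes place in pre-B cells, whereas pro-B cells mainly rearrange the heavy chain locus. V kappa genes lie in either orientation. Forward genes join by deleting the DNA in between and reverse genes by inverting it. Wapl releases cohesin from chromatin, and its repression by Pax5 in early B cells lengthens the loops that cohesin extrudes at the pro-B stage. The mutation relieves this repression. The RAG recombinase cuts at a recombination signal sequence beside each gene, which consists of a heptamer, a spacer and a nonamer.

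The deposited values are percentages per V kappa gene of a total that the sources used here do not name, and their sum over the 163 listed IGKV genes was taken as the level of Igk rearrangement of a library. In the 6 mutant pro-B libraries this sum ranged from 0.152% over a median of 0.258% to 0.377%. In the 4 mutant pre-B libraries it was 5.66%, 6.15%, 4.89% and 6.60%. Every pre-B library lay above every pro-B library, and the geometric means differed 23.8-fold (two-sided exact permutation test with 210 arrangements, p = 0.00476, the smallest value these group sizes allow). All later frequencies are percentages of the V kappa joints of a library, that is, each value divided by this sum.

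The rise in level was shared by the V kappa genes but was uneven among them. On average over the 10 libraries 100 genes took 0.05% or more of the joints, and 94 of them did so in both stages. For each of the 94, the deposited value was higher in every pre-B than in every pro-B library. Over the 94 genes that reached this share in both stages, the ratio of the group means ranged from 10.3-fold to 123-fold with a median of 31.4-fold. IGKV10-95, IGKV1-110 and IGKV19-93 increased least, by 10.3-fold, 10.4-fold and 10.9-fold. IGKV6-23 and IGKV6-17 were the highest of the 94, with 123-fold and 121-fold. Without mutant pro-B replicate 6, a step added after seeing the data, the ratio of IGKV6-23 was 185-fold.

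Depth differed between the stages. In units of the smallest value of a library, which overstate the sequences where reads were divided between genes, the joints summed to between 2016 and 6892 in mutant pro-B and to between 23280 and 56236 in mutant pre-B libraries. Genes listed at 0 numbered 55 to 65 of 163 in pro-B and 47 or 48 in pre-B libraries. Of all 163 genes, 86 were above 0 in all 10 libraries and 46 were at 0 in all 10. None of the 92 functional genes was at 0 throughout. The experiment numbers form series by their leading digits, and 1 of them holds both stages, with 3 pro-B and 2 pre-B libraries. Neither the labels nor the methods say what a series marks. No exact p-value below 0.1 can be had within this shared series, where the level differed 22.1-fold.

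**Figure D1:**
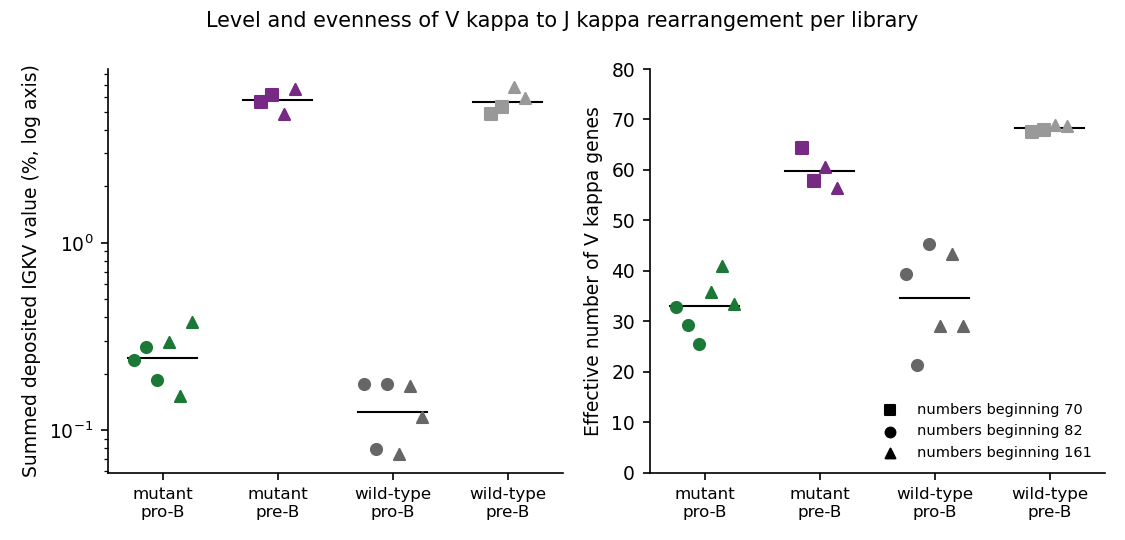
The left panel plots the summed deposited IGKV value per library (%, log axis) and the right panel the effective number of V kappa genes, for mutant and wild-type pro-B and pre-B libraries. Each point is a library, its shape gives the leading digits of the experiment number, and lines mark the geometric mean on the left and the mean on the right. The mutant pro-B libraries sit between 0.152% and 0.377% and the mutant pre-B libraries between 4.89% and 6.60%.

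Fewer V kappa genes carried the joints of mutant pro-B cells. The effective number of genes, the inverse of the summed squared shares, equals the number of equally used genes that would give the same concentration. It ranged from 25.5 over a median of 33.2 to 41.1 in pro-B libraries and was 64.4, 57.8, 60.6 and 56.4 in pre-B libraries. The stages did not overlap, and the mean rose from 33.0 ± 5.35 (SD, n = 6) to 59.8 ± 3.54 (SD, n = 4), with an adjusted exact permutation p = 0.00595 over 5 values of the same kind. Corrected for the finite number of joints, a step added after seeing the data, the means were 33.4 and 59.9. The units of the smallest value stood for joints there, so the correction may be too small. The 5 most used genes of a library held between 25.1% and 35.1% of the joints in pro-B and between 15.4% and 18.4% in pre-B libraries.

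The mean profiles of the stages were 22.2 percentage points apart, as the sum of all positive differences between them (exact permutation test, one-sided, p = 0.00476). Pairs of libraries within pro-B differed by 14.2 points on average and pairs within pre-B by 6.93 points. Within the shared series the distance was 18.2 points. The group means of the 163 genes had a Pearson's r of 0.879 (Spearman's rho 0.971), which describes genes and not replicates.

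The 5 most used genes largely coincided between the stages. IGKV19-93 led in each of the 6 mutant pro-B libraries, with 8.04% of the joints in the lowest, 9.96% in the median and 12.7% in the highest. In the 4 pre-B libraries it took 4.06%, 4.74%, 4.35% and 5.51%, all below every pro-B value. IGKV1-135 led in 3 of these 4 libraries with 4.51%, 5.24% and 5.05%, and took 4.69% in pre-B replicate 4. In pro-B cells IGKV1-135 ranged from 4.37% over 6.65% to 7.62%, which overlaps the pre-B values. IGKV10-95, IGKV1-110 and IGKV1-88 completed the pro-B group with means of 5.03%, 4.40% and 3.795%. In pre-B cells IGKV1-88, IGKV10-96 and IGKV10-95 followed with means of 2.83%, 2.49% and 2.19%, and IGKV1-110, at 1.93%, was no longer among the first 5.

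**Figure D2:**
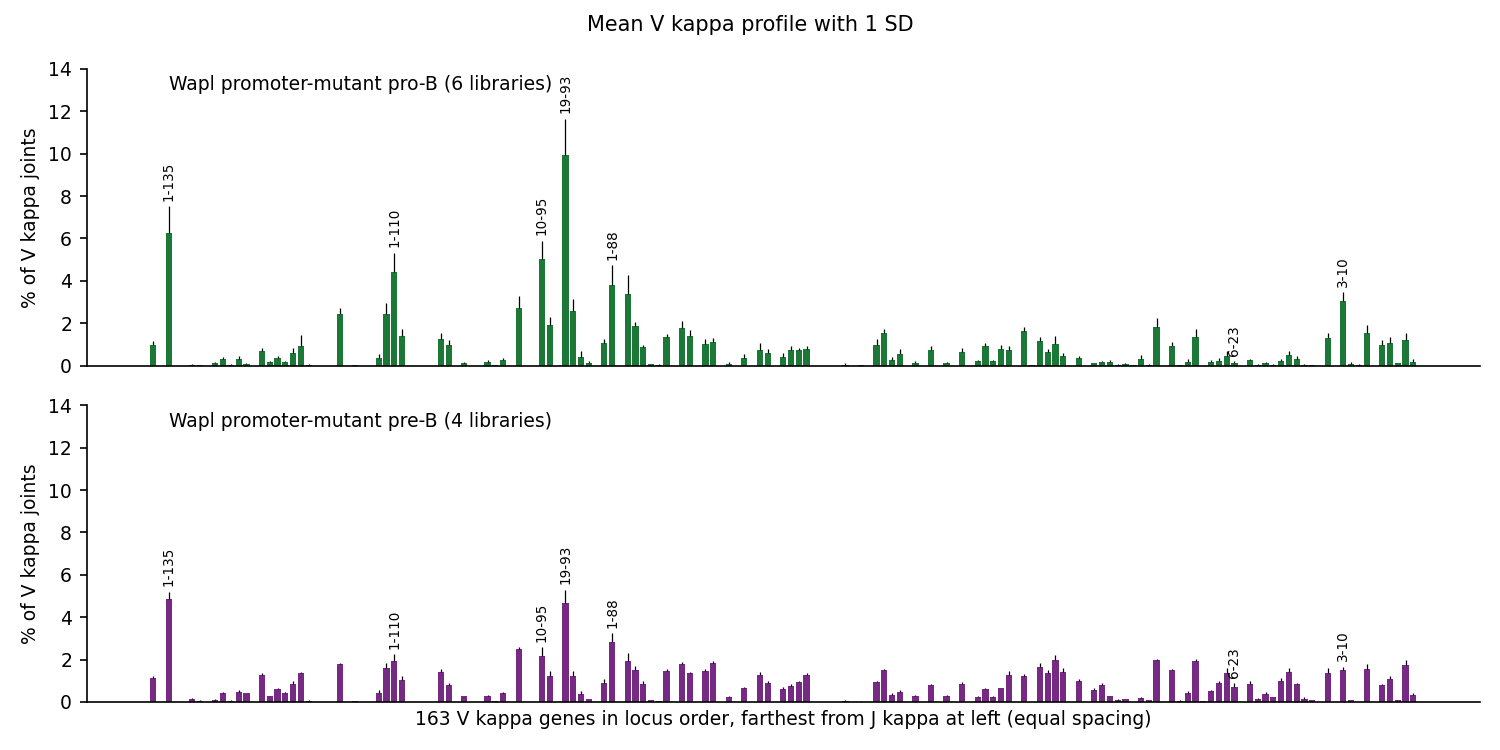
Mean share of V kappa joints (%) of each of the 163 listed genes in mutant pro-B (top, 6 libraries) and mutant pre-B cells (bottom, 4 libraries), in locus order with the gene farthest from J kappa at the left. Lines on the bars are 1 SD, and the tallest bar, IGKV19-93, stands at 9.92% in pro-B and at 4.66% in pre-B cells.

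Single genes were tested with limma on log2 of the percentage plus 0.05, and differences are given as pre-B minus pro-B. Of the 100 genes tested, 54 had a Benjamini-Hochberg adjusted p-value below 0.05 (54.0%), 42 of them higher in pre-B cells (42.0%) and 12 lower (12%). The libraries of the stages did not overlap in 41 genes (41.0%), of which 33 (33.0%) were higher and 8 (8.0%) lower in pre-B cells, and 39 of these 41 genes were among the 54. Of the tested genes, 6 reached the mean of 0.05% only through pre-B cells, 5 of them among the 42, and such genes could hardly be called lower. The median log2 difference of all tested genes was 0.51. When each library was centred on its median gene, which shifted the log2 differences by -0.61 and left a median of -0.10, 52 genes were called, 19 higher and 33 lower. All 12 genes lower in the uncentred test were also lower after centring, and 19 of the 42 higher genes were also higher. Within the shared series 18 genes were called, 14 higher and 4 lower, and each was called in the same direction over all libraries. All 42 higher and all 12 lower genes kept their sign within that series.

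The locus was divided into 3 segments of equal length, whose counts of called genes stand beside 42% higher and 12% lower over all tested genes, and 19% and 33% after centring. The proximal segment, next to J kappa, took between 19.5% and 29.1% of the joints in pro-B libraries (median 23.2%) and 38.2%, 35.1%, 37.8% and 32.8% in pre-B libraries. The mean rose by 11.9 percentage points (exact permutation test, adjusted p = 0.00595), and 25 of 40 tested genes were called higher there and 2 lower, where 4 of the higher genes passed the filter through pre-B cells only, with a median log2 difference of 0.87. After centring 17 were higher and 9 lower. The middle segment took between 47.3% and 56.0% in pro-B libraries (median 50.6%) and 40.0%, 42.3%, 39.7% and 43.6% in pre-B libraries, and its mean fell by 9.59 points (adjusted exact permutation p = 0.00595). Of its 37 tested genes 9 were higher and 6 lower, with a median of 0.09, and after centring 0 were higher and 18 lower. The distal segment decreased by 2.28 points, from 24.9% ± 1.27 (SD, n = 6) to 22.6% ± 0.758 (SD, n = 4) (adjusted exact permutation p = 0.0286), with overlap between the stages. Of its 23 tested genes 8 were higher, 1 of which passed the filter through pre-B cells only, and 4 lower, with a median of 0.56, and after centring 2 were higher and 6 lower. The uncentred distal counts are near the shares of all tested genes.

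The place of the decrease depended on where the locus was divided. With 3 segments of equal gene number the decrease moved to the distal segment, which fell by 11.3 points (adjusted exact p = 0.00595), while the middle segment differed by -0.57 points (adjusted exact p = 0.386). Within the shared series the proximal, middle and distal differences were 8.60, -7.41 and -1.20 points. The distal difference did not pass the test without mutant pre-B replicate 1 (-1.99 points, adjusted exact p = 0.0595).

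A division into 10 intervals of equal length, numbered from J kappa, was chosen after the values were seen and is given without a test. Its counts of called genes stand beside the same shares of all tested genes, 42% higher and 12% lower, and 19% and 33% after centring. Interval 1, which holds the V kappa 3 genes, had 9.89% ± 1.39 (SD, n = 6) of the joints in pro-B and 9.62% ± 0.84 (SD, n = 4) in pre-B cells. Interval 2 took between 3.08% and 6.94% in pro-B libraries and 12.6%, 10.9%, 12.4% and 9.90% in pre-B libraries, and all 13 of its tested genes were called higher, 10 of them also after centring. Of these 13 genes, IGKV8-18 and IGKV6-20, named after values were seen, passed the filter through pre-B cells only. In interval 3 the share went from between 4.59% and 7.89% to 12.3%, 10.3%, 12.45% and 10.9%, with 8 of 12 tested genes higher and 0 lower, and 5 higher and 1 lower after centring. Of the 8, IGKV5-37, likewise named after values were seen, passed the filter through pre-B cells only. The stages did not overlap in either of these stretches. Interval 7, around IGKV19-93, held between 19.4% and 29.1% in pro-B cells, against 11.7%, 13.3%, 12.1% and 15.2% in pre-B cells, and 4 of its 9 tested genes were lower and 1 higher, with 5 lower and 0 higher after centring. Interval 8 went from 10.97% ± 1.51 (SD, n = 6) to 7.49% ± 0.948 (SD, n = 4), and interval 10, the farthest, from 8.01% ± 1.48 to 7.29% ± 0.391.

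**Figure D3:**
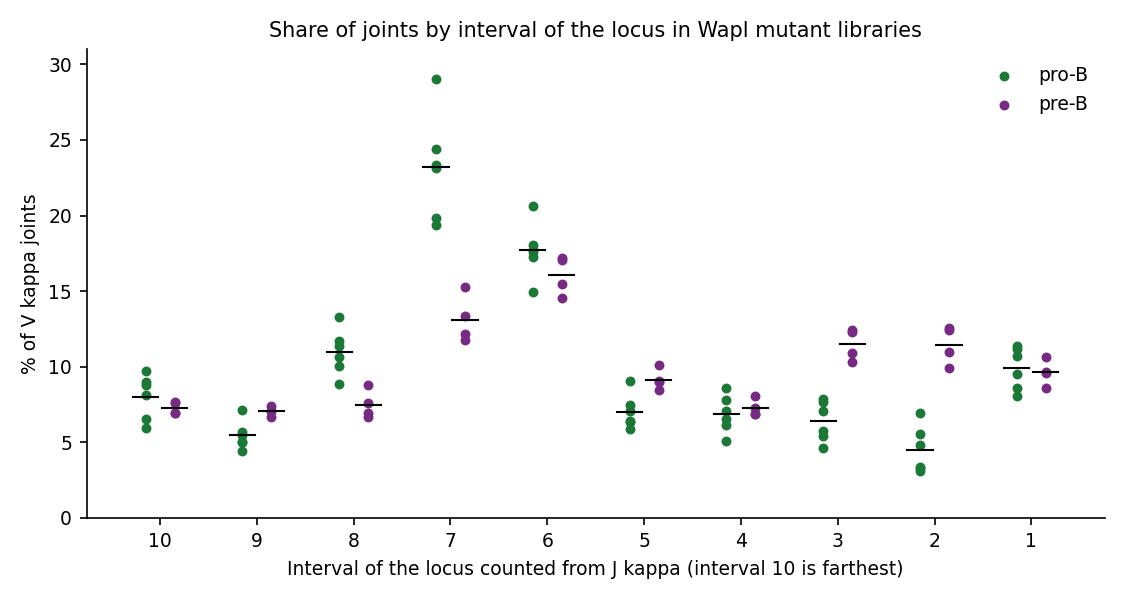
Share of V kappa joints (%) in each of 10 intervals of the locus, counted from J kappa and drawn with the farthest at the left, for the mutant pro-B and pre-B libraries (points) and their means (lines). The stages separate in intervals 2 and 3, where pre-B libraries are higher, and in intervals 7 and 8, where pro-B libraries are higher and reach 29.1% in interval 7.

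Of the 8 genes with the largest difference of log2(percentage + 0.05) among those called without overlap, all but IGKV14-126 came from the V kappa 5, 6, 8 and 12 families. IGKV6-23, a reverse gene at chr6:70210403-70210927 (mm9), took between 0.0361% and 0.248% of the joints in pro-B libraries (median 0.0971%) and 0.896%, 0.633%, 0.797% and 0.582% in pre-B libraries. All pre-B libraries were higher than all pro-B libraries, and the log2 difference was 2.24 (standard error 0.36, limma adjusted p = 8.09e-05). The pro-B values stand for only 1 to 11 units of the smallest value. IGKV6-17, a forward gene at chr6:70321463-70321987, ranged from 0.0656% over 0.174% to 0.347% in pro-B libraries and was 1.09%, 0.964%, 1.14% and 0.821% in pre-B libraries, again without overlap. Its log2 difference was 2.20 (standard error 0.31, limma adjusted p = 3.41e-05), with pro-B values of 2 to 18 units.

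IGKV8-24, a reverse gene at chr6:70166852-70167415, was listed at 0 in the lowest pro-B library and reached 0.397% in the highest, against 1.01%, 0.905%, 0.919% and 0.826% in pre-B libraries (log2 difference 2.18, standard error 0.46, limma adjusted p = 0.00106). IGKV12-40, IGKV5-39 and IGKV14-126 differed by 2.00, 1.90 and 1.84 on the log2 scale, and IGKV8-23-1 and IGKV8-21 by 1.75 and 1.64 (limma adjusted p between 2.33e-05 and 0.000445 for the 5 genes). The stages did not overlap in any of the 5. Pro-B values stood for 1 to 10 units in IGKV12-40, 3 to 10 in IGKV5-39 and 1 to 6 in IGKV14-126. They stood for 0 to 12 units in IGKV8-24, 4 to 37 in IGKV8-23-1 and 3 to 24 in IGKV8-21. IGKV12-40 and IGKV14-126 are listed as pseudogenes and IGKV8-23-1 as an open reading frame without full function. IGKV14-126 lies at chr6:67826005-67826471 in the distal segment by the gene list of the study and rose from a mean of 0.0819% to 0.411%. The mm9 annotation has no gene there and places Igkv14-126 at 67846171 to 67846636, where the list has IGKV14-126-1, which is at 0 in all libraries, so the position behind this value is uncertain. All 8 genes were also called after centring and within the shared series. There the log2 differences of IGKV6-23, IGKV8-24 and IGKV8-23-1 were smaller, at 1.59, 1.55 and 1.10 (limma adjusted p = 0.0143, 0.0132 and 0.0479). Those of IGKV6-17, IGKV12-40 and IGKV8-21 were also smaller, at 1.797, 1.673 and 1.356 (limma adjusted p = 0.0132 for each). IGKV5-39 and IGKV14-126 stayed close to their values over all libraries, at 1.888 and 1.872.

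By family, 9 of 10 tested V kappa 8 genes, 6 of 7 V kappa 6 genes, 4 of 5 V kappa 5 genes and 5 of 7 V kappa 12 genes were called higher in pre-B cells, beside 42% of all tested genes, and 1 V kappa 5 gene was lower, with 0 lower in the other families. After centring these counts of higher genes were 6, 6, 3 and 2, beside 19% of all tested genes. The counts of lower genes were then 0, 1, 1 and 1, beside 33%. The filter was passed through pre-B cells only by 1 V kappa 8, 2 V kappa 6 and 1 V kappa 5 gene among those called higher before centring. The families took 4.30%, 2.67%, 2.94% and 4.14% of the joints in pro-B cells and 9.23%, 5.47%, 4.91% and 6.78% in pre-B cells. V kappa 4, the largest family with 32 tested genes, held 25.5% ± 1.53 (SD, n = 6) in pro-B and 26.9% ± 0.798 (SD, n = 4) in pre-B cells, with 10 genes higher and 3 lower. None of the 10 was higher after centring, and 11 of the 32 were lower, beside 33% of all tested genes. V kappa 1 held 17.2% ± 1.30 and 12.1% ± 0.923, V kappa 10 held 9.69% ± 1.26 and 5.93% ± 0.621.

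**Figure D4:**
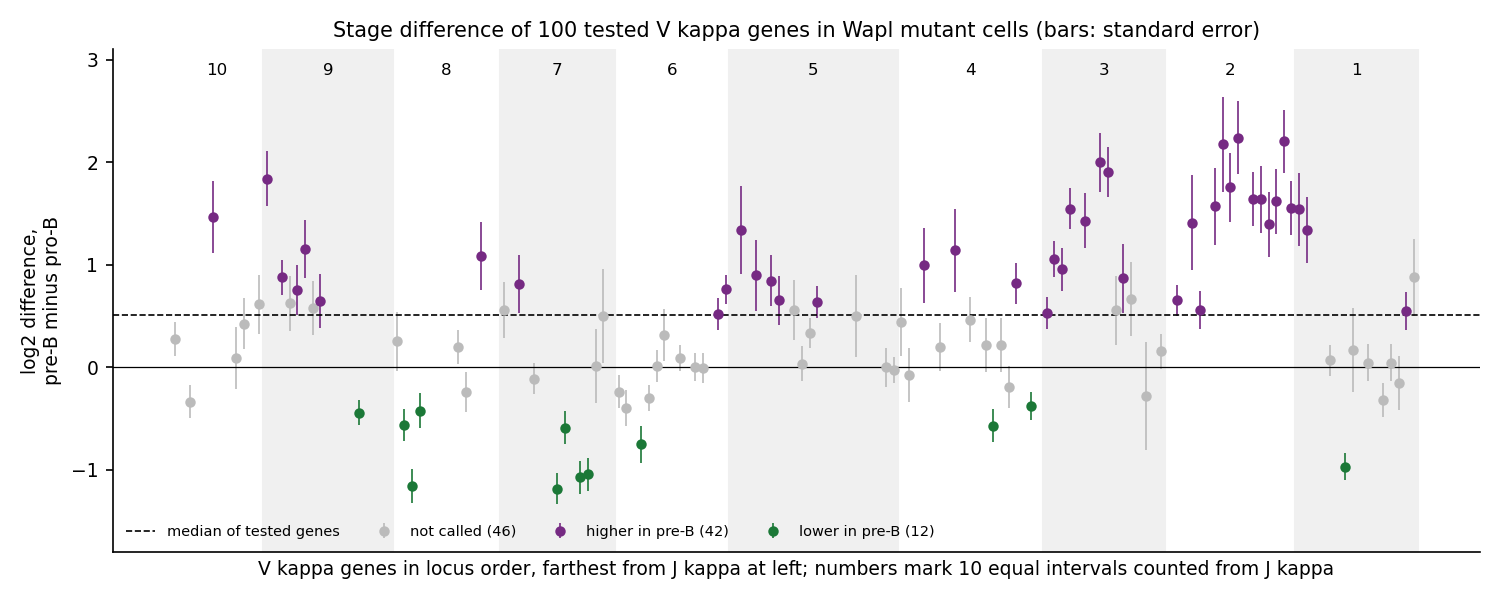
Log2 difference (pre-B minus pro-B, with standard error) of the 100 tested V kappa genes in mutant cells, in locus order with the gene farthest from J kappa at the left. Colour marks the 42 genes called higher and the 12 called lower in pre-B cells, the dashed line is the median of 0.51, and shading separates the 10 intervals. All 13 tested genes of interval 2 lie above 0.

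All 8 genes called lower without overlap are described here, with IGKV3-10 among the V kappa 3 genes. IGKV10-95, a forward gene at chr6:68630373-68630842, took from 4.29% over 4.69% to 6.56% of the joints in pro-B libraries and 1.78%, 2.44%, 1.95% and 2.59% in pre-B libraries. Its log2 difference was -1.18 (standard error 0.15, limma adjusted p = 2.33e-05). The gene is 97.03% identical to IGKV10-94, and reads fitting both may have been shared. IGKV1-110, a forward gene at chr6:68220521-68221259 in the distal segment, took from 3.28% over 4.28% to 5.90% in pro-B libraries and 1.62%, 2.15%, 1.69% and 2.27% in pre-B libraries (log2 difference -1.16, standard error 0.16, limma adjusted p = 3.42e-05). For both genes every pre-B library lay below every pro-B library.

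IGKV19-93, at chr6:68686291-68686758 in reverse orientation, differed by -1.07 (standard error 0.16, limma adjusted p = 4.84e-05). Within the shared series its adjusted p-value was 0.0511 with a difference of -0.82. IGKV4-92, its reverse neighbour at chr6:68705032-68705587, went from between 2.13% and 3.67% in pro-B libraries (median 2.42%) to 1.05%, 1.35%, 0.984% and 1.498%, a log2 difference of -1.04 (limma adjusted p = 7.42e-05). IGKV4-86, IGKV4-53 and IGKV1-117 differed by -0.75, -0.57 and -0.44 (limma adjusted p = 0.00240, 0.00662 and 0.00584), and these 3 were not called within the shared series. Leaving out any of the 10 libraries kept the call of all 8 genes.

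The stretch from IGKV4-79 to IGKV10-96, which lies around the E88 enhancer and whose bounds were set with results of these libraries known, held 38.3% ± 4.27 (SD, n = 6) of the joints in mutant pro-B and 25.1% ± 2.73 (SD, n = 4) in mutant pre-B cells. The single pro-B libraries ranged from 32.0% to 45.2% and the pre-B libraries from 22.3% to 28.3%. Of its 16 tested genes 5 were lower and 0 higher, beside 12% lower and 42% higher of all tested genes, with a median log2 difference of -0.17 beside 0.51. After centring 13 were lower, beside 33% of all tested genes. The change was uneven within the stretch. IGKV4-79 and IGKV10-96 at its ends differed by -0.01 and -0.11 (limma adjusted p = 0.991 and 0.555), and the sign for IGKV4-79 turned in 4 alternatives, with values of at most 0.082. After centring both were lower, by -0.61 and -0.72 (adjusted p = 0.00674 and 0.00123). IGKV1-88 within it took 3.795% ± 0.942 (SD, n = 6) and 2.83% ± 0.407 (SD, n = 4), a difference of -0.39 that missed the threshold (limma adjusted p = 0.0667) and passed it after centring (-1.002, adjusted p = 0.00329).

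The V kappa 3 genes lie nearest to J kappa. The 12 genes from IGKV3-1 to IGKV3-12 took between 7.74% and 11.02% of the joints in pro-B libraries and 8.48%, 9.63%, 8.40% and 7.70% in pre-B libraries. Of 9 tested genes 1 was higher and 1 lower, beside 42% and 12% of all tested genes, with a median log2 difference of 0.05. After centring 6 were lower and 0 higher, beside 33% and 19%. IGKV3-10, a forward gene at chr6:70522627-70523224, fell from between 2.44% and 3.54% (median 3.12%) to 1.34%, 1.70%, 1.54% and 1.49%, a log2 difference of -0.97 without overlap (standard error 0.13, limma adjusted p = 3.41e-05). It is 97.7% identical to IGKV3-5. IGKV3-2 was higher by 0.55 (limma adjusted p = 0.0185) with overlap, which turned to -0.059 after centring and missed the threshold within the shared series. IGKV3-1, the gene next to J kappa, took 0.189% ± 0.114 (SD, n = 6) and 0.343% ± 0.0562 (SD, n = 4), a difference of 0.88 that missed the threshold (limma adjusted p = 0.0578). IGKV3-12 differed by 0.07 (limma adjusted p = 0.762) and, after centring, by -0.54 (adjusted p = 0.0416).

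The 15 genes from IGKV9-120 to IGKV1-133 took between 2.79% and 5.23% of the joints in pro-B libraries and 6.95%, 6.04%, 6.67% and 6.27% in pre-B libraries, without overlap. Apart from IGKV1-133, 5 of 10 tested genes were higher and 0 lower, beside 42% higher of all tested genes. After centring 2 of all 11 were higher, about the 19% of all tested genes. IGKV1-133 took 0.0333% ± 0.0512 (SD, n = 6) in pro-B and 0.155% ± 0.0227 (SD, n = 4) in pre-B cells. It passed the filter through pre-B cells only, and its call as higher, before and after centring, is therefore not read. Its pro-B libraries held between 0 and 6 units, and the highest overlapped the lowest pre-B library. IGKV9-120 was higher by 0.64 (limma adjusted p = 0.0462), a call kept after only 1 of the 10 single libraries was left out, and the difference was 0.12 within the shared series. IGKV1-135 and IGKV2-137, the farthest genes, together took between 5.06% and 8.996% in pro-B libraries and 5.57%, 6.41%, 6.27% and 5.79% in pre-B libraries. Neither was called, with log2 differences of -0.33 and 0.28 (limma adjusted p = 0.0904 and 0.176). After centring IGKV1-135 was lower (-0.94, adjusted p = 0.00502).

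Forward genes lost share between the stages. The 77 genes in forward orientation took between 38.8% and 44.4% of the joints in pro-B libraries (median 40.2%) and 35.4%, 37.8%, 36.2% and 36.5% in pre-B libraries, without overlap. The mean fell by 4.19 points (exact permutation test, adjusted p = 0.00595), and by 3.28 points within the shared series. Orientation and place were linked, as 40 of the 47 genes of the distal segment are forward and 41 of the 61 genes of the middle segment are reverse. In the proximal segment, reverse genes went from 13.7% ± 2.67 (SD, n = 6) to 24.3% ± 2.06 (SD, n = 4) and forward genes from 10.4% ± 1.55 to 11.7% ± 1.02. In the middle segment reverse genes went from 45.1% ± 2.41 to 38.3% ± 1.42 and forward genes from 5.92% ± 0.863 to 3.08% ± 0.480. In the distal segment the 7 reverse genes went from 0.529% ± 0.148 to 0.902% ± 0.0304 and forward genes from 24.4% ± 1.285 to 21.7% ± 0.743. The reverse genes thus took a larger share in the proximal and distal segments and a smaller share in the middle segment.

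Genes not classed as functional took a larger share in pre-B cells. Pseudogenes, 60 in the list, took between 1.51% and 2.46% of the joints in pro-B and between 3.65% and 4.31% in pre-B libraries, and 5 of 7 tested were higher and 0 lower, beside 42% higher of all tested genes. After centring 2 of the 7 were higher, beside 19% of all tested genes. The 9 genes listed as open reading frames went from 1.87% ± 0.308 (SD, n = 6) to 2.90% ± 0.185 (SD, n = 4). The 92 functional genes held 96.1% ± 0.490 and 92.9% ± 0.428.

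Recombination signal sequences are printed for some of the genes described above, most of which share an identical signal with another gene. They were read 3′ of each gene from the NCBIM37 (mm9) assembly, on the strand of the gene. The search took the heptamer CACAGTG and the nonamer ACAAAAACC separated by 12 bases, required CAC at the start, allowed up to 6 mismatches and covered the gene's own strand only. A match was found for 132 of 162 genes with coordinates, and it carried the exact heptamer in 81.8% and the exact nonamer in 29.5% of these. Capitals mark the heptamer and the nonamer and lower case the spacer. The first group holds 3 genes of 1 family with the same 28 bases.
IGKV10-94 and IGKV10-95 and IGKV10-96: CACAATGatataagtcataACATAAACC
IGKV4-50 and IGKV4-86, among 13 V kappa 4 genes: CACAGTGatacagactggaACAAAAACC
IGKV3-10 and IGKV3-2, among 8 V kappa 3 genes: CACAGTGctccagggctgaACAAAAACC
IGKV6-17, among 7 V kappa 6, 7 and 8 genes: CACAGTGcttcagcctcctACACAAACC
IGKV6-23 (reverse, chr6:70210375-70210402), shared with IGKV6-14: CACAGTGcttcagcctcctACATAAACC
IGKV19-93 (reverse, chr6:68686263-68686290): CACAGTGatacaaatcataACAAAAACC
IGKV1-110 (forward, chr6:68221262-68221289), shared with IGKV1-117: CACAGTGatacagaccctaACAAAAATA

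Stage differences were set side by side for genes with the same signal, and counts of called genes are read against 42% higher and 12% lower of all tested genes. Among the 3 V kappa 10 genes, IGKV10-95 was lower by 1.18 in pre-B cells, as given above, and IGKV10-94, named for its sequence after values were seen, differed by -0.59 (limma adjusted p = 0.00594), while IGKV10-96 differed by -0.11. The mm9 annotation has Gm16637 at the position of IGKV10-96. It places Igkv10-96 at 68597993 to 68598115, where the list has IGKV2-95-2, which is at 0 in all libraries. The 13 V kappa 4 genes ranged from -0.75 for IGKV4-86 to 0.90, with 6 higher and 1 lower, about the shares of all tested genes. IGKV4-50, which is nearer to J kappa and was likewise named after values were seen, was higher by 0.82. The 8 V kappa 3 genes ranged from -0.97 to 0.88, with 1 higher and 1 lower. In the group with IGKV6-17, 5 of 6 tested genes were higher and 0 lower, with a range from 0.15 to 2.20. IGKV1-110 and IGKV1-117 were both lower. IGKV6-14, which shares the signal of IGKV6-23, passed the filter through pre-B cells only, and its call is not read. The exact heptamer was present in 36 of 41 genes called higher, in 9 of 12 called lower and in 41 of 44 not called, beside 88.7% of all tested genes with a match. The exact nonamer was present in 12, 3 and 23 of them, beside 39.2%. The 41 include 5 genes that passed the filter through pre-B cells only. These matches describe letters and not activity.

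Most genes differed between the stages in the same direction in wild-type cells. Over 106 genes tested in all 20 libraries, 86 had the same sign in both genotypes, and the log2 differences of mutant and wild type, which come from separate libraries, had a Pearson's r of 0.629 across genes (Spearman's rho 0.570). IGKV19-93 and IGKV10-95 differed by -1.17 and -1.22 in wild-type cells, close to -1.07 and -1.18 in the mutant. The proximal segment went from 24.9% ± 3.41 (SD, n = 6) to 37.0% ± 0.573 (SD, n = 4) in wild-type cells, a gain of 12.1 points beside 11.9 in the mutant. The difference of the gains, -0.25 points, was not larger than the spread between libraries (standard error 2.39, permutation of residuals, adjusted p = 0.914). For this test the stage and genotype effects were first removed by an additive fit and the residuals were permuted between genotypes within each stage, an approximate test added after seeing the data. The test set before, which permuted genotype labels with the overall gap between the genotypes left in, passed for none of the 6 values compared (adjusted exact permutation p between 0.148 and 0.916).

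The distal segment differed by -8.45 points in wild-type cells, from 36.2% to 27.7%, beside -2.28 in the mutant. The middle segment differed by -3.67 points in wild-type cells beside -9.59 in the mutant. The differences between genotypes were 6.17 points (standard error 1.10) and -5.93 points (standard error 1.82), and both passed the permutation of residuals (adjusted p = 0.00223 and 0.0179). The forward share differed by -7.80 points in wild-type cells and by -4.19 in the mutant, a difference of 3.62 points (standard error 1.20, adjusted permutation p = 0.0215). The effective number differed by 33.7 and by 26.8 between the stages, and the difference of -6.91 did not pass (standard error 4.79, adjusted permutation p = 0.197). The level rose 45.8-fold in wild-type and 23.8-fold in mutant cells, a ratio of the folds of 0.520 (adjusted permutation p = 0.0231 over the 6 values). The distal, middle, forward and level calls held whichever of the 20 libraries was left out. All 4 rest on the added test alone. Within the shared series, with 3 pro-B and 2 pre-B libraries per genotype, mutant minus wild-type stage differences were 7.73 points in the distal, -2.36 in the middle and -5.37 in the proximal segment, 4.55 points for the forward share and -13.3 effective genes, and the level rose 22.1-fold against 55.4-fold. None passed there by the same permutation (adjusted p between 0.1 and 0.417).

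**Figure D5:**
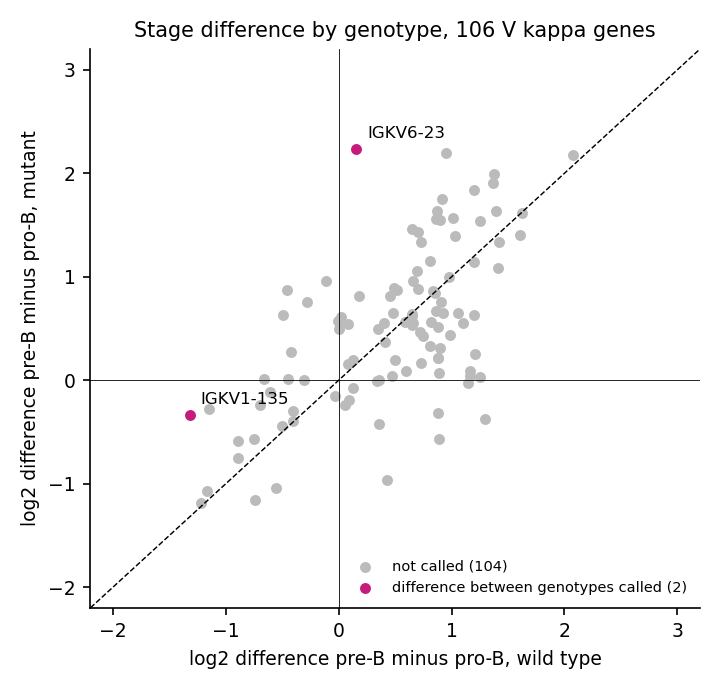
Log2 stage difference (pre-B minus pro-B) of 106 V kappa genes in mutant (vertical) against wild-type cells (horizontal), 1 point per gene, with equality as the dashed line. The 2 genes whose stage difference was called different between genotypes are coloured, IGKV6-23 at 2.24 against 0.16 and IGKV1-135 at -0.33 against -1.32.

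At single genes, the stage difference depended on genotype in 2 of 106 genes (1.89%) by the limma interaction test, and in 9 at an unadjusted p-value below 0.05. IGKV6-23 took 0.887% ± 0.247 (SD, n = 6) in wild-type pro-B and 0.965% ± 0.0645 (SD, n = 4) in wild-type pre-B cells, so its stage difference was 0.16 there and 2.24 in the mutant, an excess of 2.08 (standard error 0.47, limma adjusted p = 0.0110). IGKV1-135 took 11.3% ± 2.48 (SD, n = 6) and 4.43% ± 0.183 (SD, n = 4) in wild-type cells, a stage difference of -1.32 against -0.33 in the mutant, with a difference of 0.98 between genotypes (standard error 0.21, limma adjusted p = 0.0110). After centring, IGKV6-23 was still called (1.68, adjusted p = 0.0294) and IGKV1-135 was not (0.58, adjusted p = 0.419). Both calls held whichever of the 20 libraries was left out. The number of called genes rose to 10 without wild-type pro-B replicate 2, a library whose joints sum to 164 units, and was 0 within the shared series, where 8 genes had an unadjusted p-value below 0.05.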

How the data were processed

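VDJ-seq of Igk was analysed in 20 libraries, 10 of them of Wapl(∆P1,2/∆P1,2) cells. Per the methods of the study, sheared DNA was ligated to adapters with UMI sequences, captured with biotinylated J kappa primers and sequenced paired-end on a MiSeq instrument. The authors deposited a percent value per V kappa gene and library. The total behind it and the treatment of reads fitting several genes are not given in the sources used here. Other file types were not used. Gene order, strand, class and mm9 positions came from the gene list of the study.

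Values were rescaled to 100 per library. Single genes were tested with limma 3.58.1 (R 4.3.3, empirical Bayes trend) on log2(percentage + 0.05) for genes averaging 0.05% or more, with Benjamini-Hochberg adjustment at 0.05. On simulated data with 30 changed genes, the stage test recovered 24 at a log2 change of 1 and 30 at 2, with 3 and 4 unchanged genes called, and the interaction test 17 and 26, with 0 and 14. With no gene changed neither test called any. Sums were compared between stages by exact permutation and between genotypes by exact permutation of genotype labels within each stage and, added after seeing the data because that test leaves the genotype gap in its permuted values, by permutation of the residuals of an additive fit, in Python 3.11.15 with numpy 2.4.6. V genes were aligned to each other with blastn 2.17.0, and pairs with 97% identity or more over 90% of the longer gene were called near-identical (14 genes). IGKV4-52 and IGKV4-54 had identical values in every library and cannot be told apart. Of the 26 genes named by rule, 22 overlapped a gene of the same name in the mm9 annotation, 1 a gene of another name and 3 none. Depth limits precision, and no count intervals were derived because the unit of the values is not stated. Since the labels do not tie libraries to mice, p-values measure the spread between these libraries, which may be technical.

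Genes named are the 8 largest changes in each direction among those called without overlap, the 5 most used per stage, 4 genes at the ends of the locus, genes called in the interaction test and 6 at the ends of study regions. The members and lists were chosen with earlier results of these data known. Alternatives were the pseudocount, the filter, no logarithm, centring, functional genes only, Holm's adjustment, array weights, all 20 libraries in 1 fit, other segments, medians, the 2 most used genes left out, the number series shared by both stages and each library left out.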

Additional observations from a re-analysis of the deposited data

Results flagged for a closer look

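By Dixon's ratio, which flags about 1 in 20 groups by chance, 5 of 66 groups of mutant libraries had a library apart from the others. Mutant pro-B replicate 2 had the highest forward share, 44.4% against 38.8% to 40.4% in the other 5. For IGKV4-92, mutant pro-B replicate 3 took 3.67% against 2.13% to 2.55%. For IGKV9-120, mutant pro-B replicate 5 took 1.84% against 0.525% to 1.02%. For IGKV1-133, mutant pro-B replicate 6 took 0.132% against 0 to 0.0390%. Mutant pre-B replicate 4 had 47 genes at 0 against 48 in the other 3, a difference of 1 gene. The stage difference of IGKV6-23 was 2.08 higher on the log2 scale in mutant than in wild-type cells, and that of IGKV1-135 was 0.98 higher, being -0.33 in the mutant and -1.32 in wild type, each by the limma interaction test. By the permutation of residuals added after seeing the data, the stage difference of the mutant minus that of the wild type was 6.17 points in the distal segment, -5.93 in the middle segment, 3.62 for the forward share and -0.28 for the log10 level.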

How the results depend on the processing

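The count of 54 genes called between the stages was 68 with array weights, 27 with Holm's adjustment, 33 with all 20 libraries in 1 fit, 18 within the shared number series and between 44 and 58 with 1 library left out. The interaction count of 2 was 6 without a logarithm, 1 after centring, 19 with array weights, 0 within the shared number series and between 2 and 10 with 1 library left out. Within the shared number series, where the exact test cannot pass, the level differed by 1.35 (log10), the distance was 18.2 points, the effective number differed by 21.7, and the distal, middle, proximal and forward shares by -1.20, -7.41, 8.60 and -3.28 points. With segments of equal gene number the middle segment differed by -0.57. With 1 library left out, these differences ranged from -2.61 to -1.95 (distal), -10.3 to -8.59 (middle), 10.9 to 12.9 (proximal) and -4.62 to -3.43 points (forward), from 25.2 to 28.4 (effective number), 20.8 to 23.7 points (distance) and 1.33 to 1.41 (level, log10). The genotype dependence of the proximal share, -0.25 points, ranged from -1.17 to 0.81 and changed sign in 7 of the 20 fits. As first planned, genotype labels were permuted without removing the genotype gap, which widened the range of permuted values by that gap, and the 6 adjusted p-values lay between 0.148 and 0.916. With the gap removed, the distal (6.17), middle (-5.93), forward (3.62) and level differences (-0.28, log10) passed. Centring turned IGKV3-2 to -0.059, IGKV3-12 to -0.54 and IGKV2-137 to -0.33. IGKV3-12 was -0.023 without mutant pre-B replicate 3 and up to 0.142 with another library left out. IGKV4-79 was 0.040 with functional genes only and ranged from -0.046 to 0.082 with 1 library left out, with a positive sign without mutant pro-B replicate 1 or 4 or mutant pre-B replicate 3. The cause of these changes was not tested. No paired analysis was possible because the labels give no replicate numbers that the stages share. Low pro-B depth limits genes with few units.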
